A study of Mus musculus with 4 samples.

Results

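Cluster 1 of the thymic adipocyte class thyAD I was a group of 85 nuclei in a chromatin accessibility library from mouse thymus. The nuclei were those that the authors' table labels thyAD I and places in cluster 1 of their joint clustering of RNA and chromatin. They made up 85 of the 317 labelled nuclei in complete rows of that table and 85 of the 146 thyAD I nuclei. The other 61 thyAD I nuclei were cluster 3, and the remaining nuclei were 140 of the class thyAD II and 31 labelled Immune. The library came from the thymi of 16 naïve WT C57/BL6 females, 6 months old and fed standard chow, pooled before the nuclei were isolated. Thymi were cleaned of the fat around them, digested, and spun so that buoyant cells could be taken. A second library, of RNA from the pooled thymi of 6 naïve WT C57/BL6 males at 4 months on the same diet, served as an outside readout. Each library is 1 pool, so the spread between animals was not measured, and no difference below carries a p-value. The clusters were made from these same nuclei, so cluster 1 against any other cluster is a description.

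Thermogenic adipocytes, the brown and beige cells of fat, burn fatty acids to make heat. Ucp1, a carrier of the mitochondrial inner membrane, lets protons return without making ATP, and Cidea, a lipid droplet protein, marks the same cells. Noradrenaline, the nuclear receptors Ppara and Esrrg and the coactivators Ppargc1a and Prdm16 set this program in fat. White adipocytes store triglyceride and secrete hormones such as leptin and adiponectin. In the thymus, the organ where T cells mature, adipocytes accumulate as the gland shrinks with age.

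Fragments were counted over each gene body plus 2 kb on either side and scaled to a total of 1000000 fragments for each class (FPM). A log2 ratio adds 0.5 fragment to each sum, a gene is called higher or lower at 1.5-fold, and it needs at least 20 fragments over both sides. Intervals are exact binomial intervals at 95% and cover counting error only. Cluster 1 held 1124353 fragments, with a median of 12369 per nucleus and a range from 4467 to 44467. Cluster 3 held 522549, with a median of 8414. Median enrichment of insertions at gene starts was 6.68 in cluster 1 and 7.92 in cluster 3, and fragments summed over windows of 1 kb on either side of RefSeq starts came to 36.0% and 40.6% of the total, with overlapping windows each counted.

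Summed over Ucp1, Cidea, Ppara and Esrrg, cluster 1 had a higher FPM than each other class. These genes were chosen to mark it, so the higher sum follows from that choice. For Cidea and Ppara alone, however, the interval over cluster 3 reaches below 0. The 4 genes together held 493 FPM in cluster 1, 319.6 in cluster 3, 254 in thyAD II and 217 in Immune. The long gene Esrrg made up 259.7 of this sum in cluster 1 and 130.0 in Immune. In Immune, 1 nucleus held 29 of the 73 Esrrg fragments. The 10 adipocyte markers, Adipoq and Plin1 among them, summed to 1979 FPM in cluster 1, 2159 in cluster 3, 1847 in thyAD II and 1254 in Immune. T-cell markers summed to 347 in cluster 1, 229.6 in cluster 3 and 1158 in Immune, with Cd8a at 0 in cluster 1 and Cd3d at 0 in cluster 3. B-cell markers ran at 141 in cluster 1 and 142 in cluster 3, and thymic epithelial markers at 120.1 and 134. Endothelial markers summed to 331 FPM in cluster 1 and 281 in cluster 3, mural markers to 314 and 346, Schwann markers to 331 and 302, and macrophage markers to 164 and 251. Fragments at markers of other cell types were thus found in every class, and the endothelial, mural and Schwann sums are near that of the 4 marker genes in cluster 3. These lists differ in the number and length of their genes, so sums of unlike lists are not like measures.

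Among the pathway lists, genes of heat production had the highest median ratio in cluster 1 over cluster 3. The list of thermogenic effectors was written with earlier results of these data known and includes the marker genes Ucp1 and Cidea. Its counts are therefore a description and not independent support. Of 22 thermogenic effectors, 21 had enough fragments, 12 were at least 1.5-fold higher than in cluster 3 and 0 were lower. Among all 18141 genes counted, 11.6% were that much higher and 11.2% that much lower. The effectors' median log2 ratio was 0.67, against −0.05 for all genes, and their summed level was 1365 FPM in cluster 1 and 968 in cluster 3. Against thyAD II, 12 of 22 were higher, where 7.62% of all genes were, and the median was 0.69. The median over cluster 3 was 0.30 with 5 fragments added to each sum and 0.28 in nuclei with at least 10000 fragments, where the regulators' median was higher. Without the 20 nuclei of RNA cluster 12, a group described further on, the effector median was 0.23. The latter pair of alternatives was added after the data were seen.

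Ucp1, on chromosome 8 at chr8:83290348-83298456 (GRCm38), had the largest ratio over cluster 3 and over thyAD II among genes with at least 40 fragments on both sides together, and ranked 5 over Immune. Its window held 45 fragments in cluster 1, 2 in cluster 3, 13 in thyAD II and 4 in Immune, or 40.02, 3.83, 5.94 and 7.13 FPM. The log2 ratio over cluster 3 was 3.08 (interval 1.45 to 6.48), over thyAD II 2.71 (1.84 to 3.77) and over Immune 2.34 (1.03 to 4.43). All 3 intervals lie above 0. For the nuclei of cluster 1 in RNA cluster 4 alone, the Ucp1 ratio over cluster 3 was 1.68 on 12 and 2 fragments, and its interval reaches below 0 (−0.22 to 5.14). Cluster 3, thyAD II and Immune sit at like levels of a few FPM.

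Dio2, which makes active thyroid hormone inside the cell, held 51 fragments in cluster 1 and 10 in cluster 3, a log2 ratio of 1.19 (0.25 to 2.39). Otop1, a proton channel of brown fat, held 73 and 15, a ratio of 1.14 (0.36 to 2.09). Cpn2, a brown fat marker that encodes a carboxypeptidase subunit, held 69 and 15, a ratio of 1.06 (0.28 to 2.01). These 3 genes were higher over thyAD II as well, with log2 ratios of 1.14, 1.42 and 1.03.

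Pank1, which catalyses the first step of coenzyme A synthesis, held 127 fragments in cluster 1 and 32 in cluster 3, a log2 ratio of 0.87 (0.31 to 1.49). Kcnk3, a potassium channel of brown adipocytes, held 199 and 51, a ratio of 0.85 (0.41 to 1.33). Fabp3, a fatty acid binding protein, held 34 and 7, and Elovl3, a fatty acid elongase induced by cold, held 41 and 10. Their ratios of 1.10 and 0.88 had intervals that reach below 0.

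Cidea, at chr18:67343564-67367794, held 72 fragments in cluster 1, 21 in cluster 3, 86 in thyAD II and 13 in Immune. Its log2 ratio over cluster 3 was 0.65, with an interval of −0.05 to 1.45, and over thyAD II it was 0.71 (0.23 to 1.17). Cpt1b, the muscle-type gatekeeper of fatty acid entry into mitochondria, held 32 and 9 in clusters 1 and 3, a ratio of 0.67 (−0.38 to 1.98). Slc27a2, a fatty acid transporter, was at 0.77 and Acot2, a mitochondrial thioesterase, at 0.75.

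Other effectors did not reach 1.5-fold. Cox7a1, a heart-type subunit of cytochrome oxidase, was at 0.55, and Slc25a20, the carnitine carrier, at 0.55. Gk, glycerol kinase, was at 0.32, Acot11 at 0.17, Letmd1 at 0.14, Plin5, which coats lipid droplets, at 0.11, and the secreted factor Nrg4 at 0.03. The lowest were Cox8b at −0.19 and Ucp3, the muscle uncoupling protein, at −0.53. Bmp8b had 15 and 4 fragments, too few to be counted. The windows of Fabp3, Cpn2, Elovl3, Acot2, Cpt1b, Cox7a1, Cox8b, Plin5 and several others overlap a neighbouring gene, so their fragments may belong to either.

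**Figure D1:**
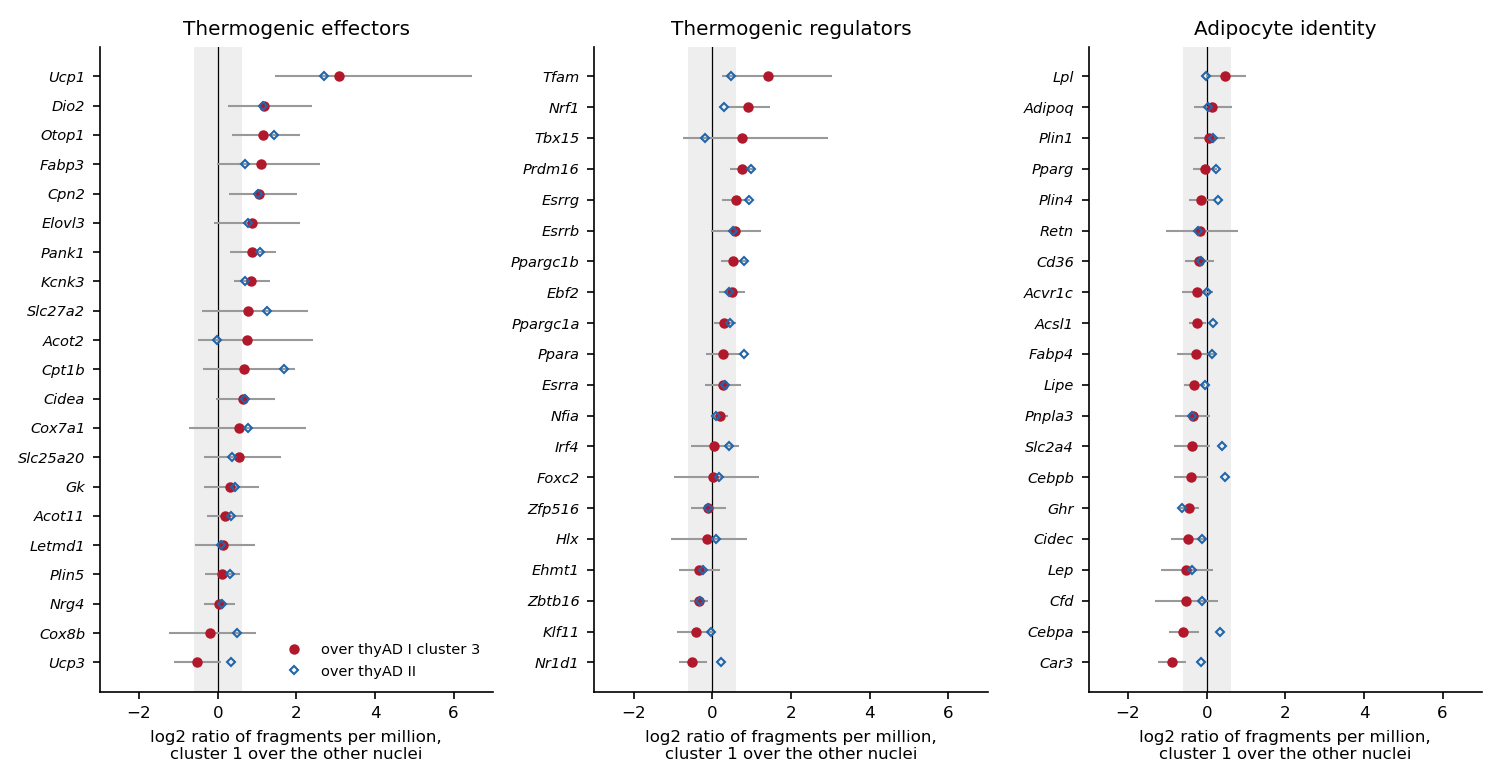
Log2 ratio of FPM in cluster 1 over thyAD I cluster 3 (red circles, with 95% counting intervals as grey lines) and over thyAD II (open blue diamonds) for each gene of 3 lists, with the band of less than 1.5-fold shaded. Ucp1 lies at 3.08, 19 of the 21 effectors counted lie above 0, and 17 of the 20 adipocyte identity genes lie below 0.

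Ucp1 fragments lay in a minority of the nuclei. A fragment was seen in 23 of 85 cluster 1 nuclei (27.1%, Clopper-Pearson interval 18.0% to 37.8%), and the nucleus with the most held 7. The share was 2 of 61 in cluster 3 (3.28%), 13 of 140 in thyAD II (9.29%) and 3 of 31 in Immune (9.68%), a class that should lack open Ucp1, at a median of 16036 fragments per nucleus. One Immune nucleus, which held 2 of the 4 Immune Ucp1 fragments, is itself in RNA cluster 12 and had 1834 T-cell marker FPM. With every nucleus thinned to 3000 fragments the counts were 12 of 85, 2 of 61, 4 of 140 and 0 of 31. Cluster 1 stays the highest after thinning, at 14.1% (7.51% to 23.4%). The thinned intervals of cluster 3 (0.400% to 11.3%) and Immune (0% to 11.2%) overlap that of cluster 1. That of thyAD II (0.784% to 7.15%) ends just below it. Nuclei of a pooled library are not replicates, and the thinning was a single random draw. These intervals therefore do not test the classes against each other. Before thinning, 12 cluster 1 nuclei held 2 or more Ucp1 fragments, against 0 in the shallower cluster 3 and 0 in thyAD II. In Immune, only that nucleus of RNA cluster 12 did.

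For the other markers the share of nuclei was wider and the contrast smaller. Cidea had a fragment in 44 of 85 cluster 1 nuclei and 18 of 61 in cluster 3, and after thinning in 15 of 85 and 8 of 61. Ppara had one in 56 of 85 and 34 of 61, and after thinning in 24 and 14. Esrrg, a long gene, had one in 77 of 85 and 42 of 61, and after thinning in 45 (52.9%) and 20 (32.8%). Thinned shares of Esrrg were 38.6% in thyAD II and 16.1% in Immune.

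Within these loci, the fragments lay in separate 1 kb bins, which are named below by the distance of their centre from the gene's lower coordinate. The bins named are among the 5 with the largest ratio over cluster 3 within 50 kb of each gene, so their ratios are high by choice. Ucp1, Ppara and Esrrg are on the plus strand, so for them this is the 5′ side. At Ucp1, the bin at −5.5 kb held 12 fragments in cluster 1, 1 in cluster 3, 7 in thyAD II and 0 in Immune. The bin at −0.5 kb held 11, 1, 2 and 2, and 9 of the 11 came from nuclei of the deposited RNA cluster 12, described further on. The bin at −2.5 kb, in the region of the well-known Ucp1 enhancer, held 12, 4, 9 and 1. The bin at −11.5 kb held 30, 9, 29 and 1, so this place was open in all adipocyte classes. The start of Ucp1 was open mainly in the RNA cluster 12 nuclei of cluster 1. Within 1 kb on either side of it, they held 13 of the 16 cluster 1 fragments. The larger RNA cluster 4 of cluster 1 held 2, or 2.45 FPM, against 5.34 FPM in Immune.

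Upstream of Ppara, at chr15:85734910-85806851, the bin at −10.5 kb held 21 fragments in cluster 1, 0 in cluster 3, 6 in thyAD II and 2 in Immune. Set against a floor of 3 fragments for cluster 3, this is at least 3.25-fold higher in cluster 1. The bin lies in the predicted gene Gm46529. The bin at −16.5 kb held 26, 3, 9 and 0. The 1 kb at either side of the Ppara start held 65 fragments in cluster 1 and 30 in cluster 3, a log2 ratio of 0.00. The gene start was open in every class, with 92 fragments in thyAD II and 23 in Immune.

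Upstream of Cidea, the bin at −13.5 kb held 22 fragments in cluster 1, 3 in cluster 3, 17 in thyAD II and 0 in Immune, and the bin at −0.5 kb held 18, 4, 20 and 1. Both lie within the neighbouring gene B430212C06Rik. In Esrrg, at chr1:187608510-188214885, the 2 bins with the largest ratios lay deep in the gene body, at 447.5 kb with 11, 0, 12 and 2 fragments and at 389.5 kb with 9, 1, 5 and 0. Exons and introns were not given in the gene table used here.

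**Figure D2:**
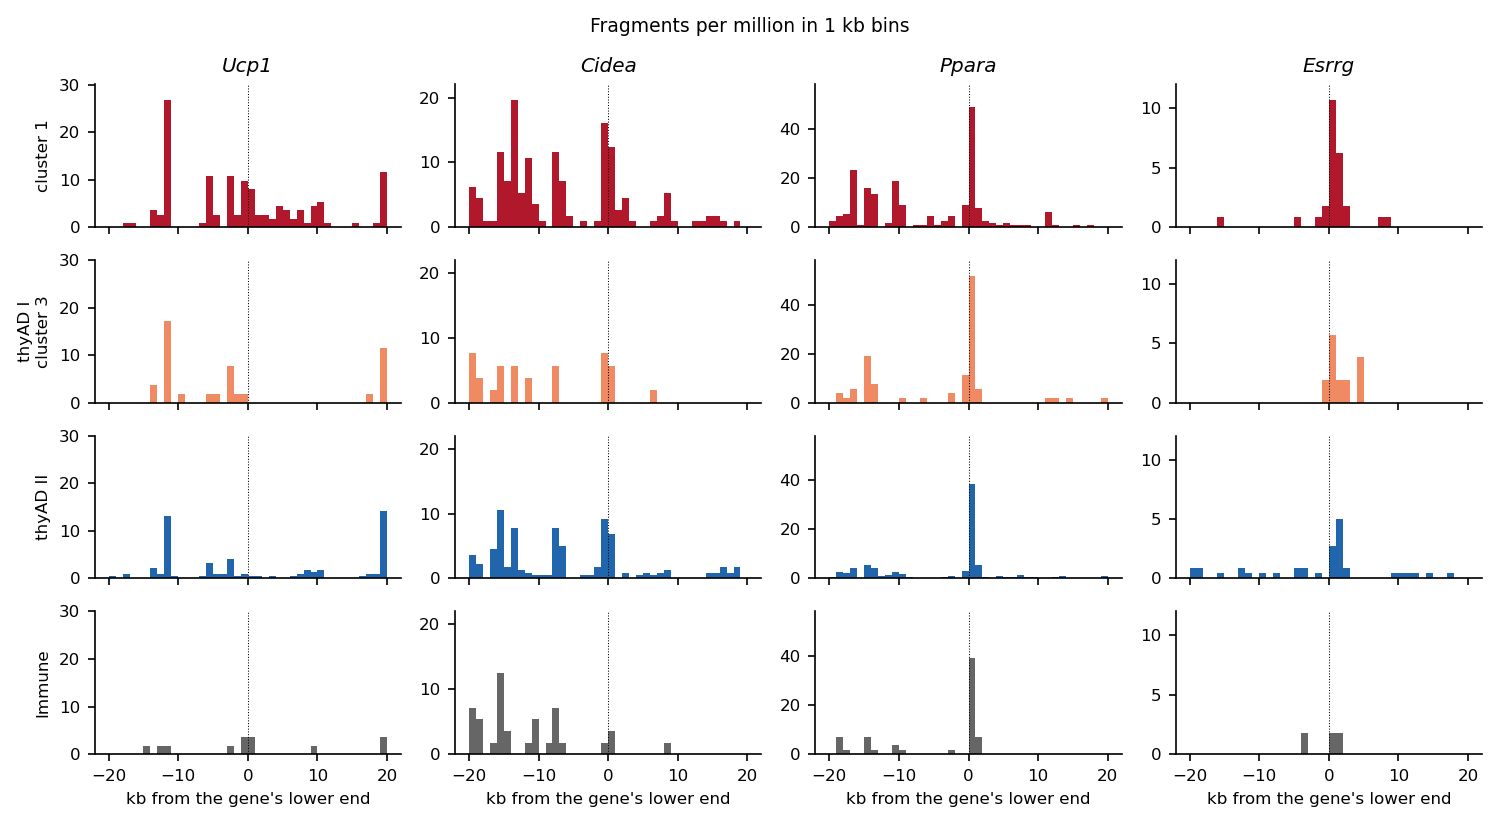
Fragments per 1000000 in 1 kb bins within 20 kb of the lower end of Ucp1, Cidea, Ppara and Esrrg (columns), in cluster 1, thyAD I cluster 3, thyAD II and Immune (rows), with 1 scale per gene. The Ucp1 bin at −11.5 kb is filled in all 3 adipocyte rows (30, 9 and 29 fragments). The bins at the Ucp1 start are filled mainly in cluster 1, and there mainly by its nuclei of RNA cluster 12.

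Promoter windows of 1 kb on either side of the RefSeq start varied among the effectors. The Ucp1 window held 16 fragments in cluster 1, 1 in cluster 3, 3 in thyAD II and 3 in Immune. The Otop1 window held 33, 7, 27 and 6, and the Dio2 window 30, 7, 15 and 1. Their log2 ratios over cluster 3 of 2.35, 1.05 and 0.92 were smaller than those of the gene windows. The Cpn2 window held 7, 0, 3 and 0. Letmd1 and Cox8b were at −0.04, Slc25a20 at −0.19 and Ucp3 at −0.77, and the 2 Pank1 starts were at 0.03 and 0.93. Over 10219 promoter windows with at least 20 fragments, the median log2 ratio of cluster 1 over cluster 3 was −0.19. The Ucp1, Cpn2 and Cox8b windows hold too few fragments to be among these.

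The 250 bases before the start of these 4 genes are printed because they are the effectors whose gene windows had a log2 ratio over cluster 3 above 1 and an interval above 0. That choice was made after the values were seen. They are RefSeq sequence of GRCm38.p6, 5′ to 3′ on the gene's strand, with capitals for letters that match a searched motif on either strand. The places are chr8:83290098-83290347 on the plus strand for Ucp1, chr5:38277154-38277403 on the plus strand for Otop1, chr12:90739039-90739288 on the minus strand for Dio2 and chr16:30267533-30267782 on the minus strand for Cpn2.
Ucp1: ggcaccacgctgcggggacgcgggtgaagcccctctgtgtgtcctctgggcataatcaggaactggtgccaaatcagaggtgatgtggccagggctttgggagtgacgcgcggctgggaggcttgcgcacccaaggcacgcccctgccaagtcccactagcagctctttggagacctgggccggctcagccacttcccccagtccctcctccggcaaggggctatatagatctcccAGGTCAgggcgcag
Otop1: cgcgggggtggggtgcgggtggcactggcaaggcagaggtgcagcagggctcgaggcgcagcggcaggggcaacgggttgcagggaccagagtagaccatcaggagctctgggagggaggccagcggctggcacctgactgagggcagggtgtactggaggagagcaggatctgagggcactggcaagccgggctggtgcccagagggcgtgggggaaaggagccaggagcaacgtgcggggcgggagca
Dio2: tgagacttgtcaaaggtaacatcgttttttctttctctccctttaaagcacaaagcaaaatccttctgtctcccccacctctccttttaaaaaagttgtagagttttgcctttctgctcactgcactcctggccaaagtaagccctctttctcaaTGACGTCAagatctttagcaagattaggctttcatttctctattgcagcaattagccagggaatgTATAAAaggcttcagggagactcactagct
Cpn2: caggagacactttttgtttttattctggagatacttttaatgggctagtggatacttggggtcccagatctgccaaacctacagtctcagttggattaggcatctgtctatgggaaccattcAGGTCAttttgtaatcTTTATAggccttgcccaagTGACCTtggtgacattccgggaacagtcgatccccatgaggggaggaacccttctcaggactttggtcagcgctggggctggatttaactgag
The nuclear receptor element AGGTCA begins 14 bases before the Ucp1 start, and 128 and 93 bases before the Cpn2 start. The cAMP element TGACGTCA begins 95 bases, and the TATA box TATAAA 30 bases, before the Dio2 start. Another TATAAA match begins 112 bases before the Cpn2 start, and the Otop1 sequence holds none of the motifs searched. AGGTCA is common: it is in 14.0% of all 32851 RefSeq promoters of this length and in 8 of the 40 promoters found for the 2 thermogenic lists, which cover 32 of their 42 genes. TGACGTCA is in 1.55% of all promoters and TATAAA in 12.4%. The ERR element TCAAGGTCA, which contains AGGTCA, is in 0.387% of all promoters and in 0 of the 40. The element AGGTCA repeated after 1 base (0.0335% of all), the C/EBP site TTGCGCAA (0.164%) and the ETS site CCGGAAGT (2.88%) were found in 0, 0 and 2 of the 40. A match of letters is no evidence that a factor binds there.

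Regulators of the thermogenic program showed a smaller shift in the main setting. In nuclei with at least 10000 fragments, their median over cluster 3 was above that of the effectors. The regulator list, too, was written with earlier results known, and it includes the marker genes Ppara and Esrrg. Of 20 regulators, 5 were at least 1.5-fold higher in cluster 1 than in cluster 3 and 0 were lower, where 11.6% of all genes were higher and 11.2% lower, with a median log2 ratio of 0.27 that was −0.11 in windows at both gene ends. Prdm16, a coregulator that sets brown fat identity, held 391 fragments in cluster 1, 107 in cluster 3, 386 in thyAD II and 76 in Immune. Its log2 ratio over cluster 3 was 0.76 (0.45 to 1.09), and over thyAD II 0.98. The higher level lay in the gene body: in windows of 1 kb around both gene ends the ratio over cluster 3 was −0.50, and the RefSeq start alone held 26 and 9 fragments, at 0.37. Tfam, which maintains mitochondrial DNA, held 37 and 6, a ratio of 1.42 (0.26 to 3.05), but over thyAD II it was at 0.48.

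Nrf1, a factor of nuclear genes for mitochondria, held 150 fragments in cluster 1 and 37 in cluster 3, a log2 ratio of 0.90 (0.39 to 1.47). Esrrg, an orphan receptor of oxidative tissues, held 292 and 89, a ratio of 0.60 (0.26 to 0.97), and over thyAD II it was at 0.94. Ppara, the receptor that drives fatty acid oxidation, held 145 and 55, a ratio of 0.29 (−0.16 to 0.77), and over thyAD II it was at 0.80. Without RNA cluster 12 the Ppara ratio over cluster 3 was −0.16.

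The coactivators Ppargc1b and Ppargc1a were at 0.54 (0.22 to 0.87) and 0.31 (0.03 to 0.60) over cluster 3, both under 1.5-fold. Ebf2, a brown fat lineage factor, was at 0.50 (0.17 to 0.84), Esrrb at 0.57, Esrra at 0.26 and Nfia at 0.21. Tbx15, with 16 and 4 fragments, was at 0.77 with an interval of −0.74 to 2.93. Irf4 and Foxc2 stood at 0.04 and 0.03, Zfp516 at −0.10, Hlx at −0.13, Ehmt1 at −0.33, Zbtb16 at −0.33 and Klf11 at −0.42. The lowest was the clock repressor Nr1d1 at −0.50 (−0.85 to −0.14).

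Most genes of the adipocyte identity list, which includes the hormone genes Lep and Retn, were lower in cluster 1 than in cluster 3. For most of them the difference was under 1.5-fold. Of 20 identity genes, 0 were 1.5-fold higher than in cluster 3, where 11.6% of all genes were, and 2 were lower, a share near the 11.2% of all genes. Only 3 had ratios above 0. The median log2 ratio was −0.30 over cluster 3, 0.00 over thyAD II and 0.67 over Immune, where 12 of 20 were higher against 18.2% of all genes. Car3, a carbonic anhydrase abundant in white fat, held 154 fragments in cluster 1 and 132 in cluster 3, a log2 ratio of −0.88 (−1.23 to −0.54). Cebpa, a master factor of white adipocytes, held 143 and 100, a ratio of −0.59 (−0.97 to −0.21).

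Other identity genes stayed within 1.5-fold of cluster 3. The highest were Lpl, the lipase that feeds fat cells, at 0.46, Adipoq, adiponectin, at 0.14 and Plin1, the main lipid droplet coat, at 0.06. Pparg, the receptor that drives all adipocytes, was at −0.05, with 296 fragments in cluster 1 and 142 in cluster 3. Plin4, Retn, Cd36, Acvr1c, Acsl1, Fabp4, Lipe, Pnpla3, Slc2a4 and Cebpb lay between −0.14 and −0.41. Ghr, the growth hormone receptor, was at −0.45, Cidec at −0.48, Lep, leptin, at −0.51 and Cfd, adipsin, at −0.53. Over thyAD II, Ghr alone passed 1.5-fold, at −0.64.

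The pathways that supply heat production differed less, and their counts are to be read against 11.6% of all genes higher and 11.2% lower. Of 25 genes of fatty acid oxidation, 6 were higher in cluster 1 than in cluster 3 and 1 was lower, with a median log2 ratio of 0.19. Hadhb, the beta subunit of the trifunctional protein, was at 0.96 and Acsl5 at 0.88, and Acadm, a dehydrogenase of medium-chain fatty acids, was at −0.44. In the TCA cycle 4 of 20 were higher and 2 lower, with a median of 0.08, from Suclg1 at 1.10 and Sdhc at 0.84 down to Dld and Idh3b, both at −0.68. Of 26 nuclear genes of the respiratory chain 3 were higher and 1 lower, a share near that of all genes, with a median of −0.07. Ndufs3 led at 1.93 on only 20 and 2 fragments, then Cox10 at 0.68, and Uqcrfs1 and Uqcrc1 were lowest at −0.66 and −0.57.

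Lists of fat storage and fuel use had medians from −0.18 to −0.01, around the −0.05 of all genes. De novo lipogenesis had a median of −0.10, with 0 of 14 higher and 1 lower: Elovl5 at 0.43 and Scd2 at 0.37 were highest, and Acss2 at −0.77 and Fasn at −0.50 lowest. Triglyceride synthesis had a median of −0.06, with Agpat3 at 0.21, Gpat4 at 0.10, Gpam at −0.50 and Pck1 at −0.41. Fatty acid uptake had a median of −0.16, led by Vldlr at 1.31 and Fabp3, with Slc27a4 at −0.51 and Fabp4 at −0.27 lowest. Glucose uptake and glycolysis had a median of −0.18, with Pgk1 at 1.22, Pkm at 0.63, Gapdh at −0.49 and Pfkl at −0.42. Breakdown of branched-chain amino acids had a median of −0.01, from Bckdk at 0.69 and Hibadh at 0.43 to Bckdha at −0.61 and Acadsb at −0.57.

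UCP1-independent heat cycles had a median of 0.17, with 2 of 12 counted genes higher, Ryr1 at 0.74 and Aqp7 at 0.62, and with Pck1 and Atp2a2 (−0.30) lowest. Adrenergic control had a median of −0.09. The kinase subunit Prkar2b was at 0.47, Prkaca at −0.41, and Adra2a, the receptor that brakes lipolysis, at −1.11 on 12 and 12 fragments. Brown fat lineage genes had a median of 0.06, with Eva1a at 0.84, Ebf2 at 0.50, Pax7 at −0.08 and Lhx8 at −0.32. White fat patterning genes had a median of −0.30, with Rb1 at 0.21, Nnat at −0.03, Hoxa9 at −0.61 and Wt1 at −0.97. Secreted factors had a median of 0.02, with Bmp7 at 1.05 and Bmp4 at 1.01 against Vegfb at −0.65 and Angptl8 at −0.51. Growth factor receptors had a median of 0.03, with Egfr at 0.44, Erbb4 at 0.24, and Ghr and Fgfr1 both at −0.45.

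**Figure D3:**
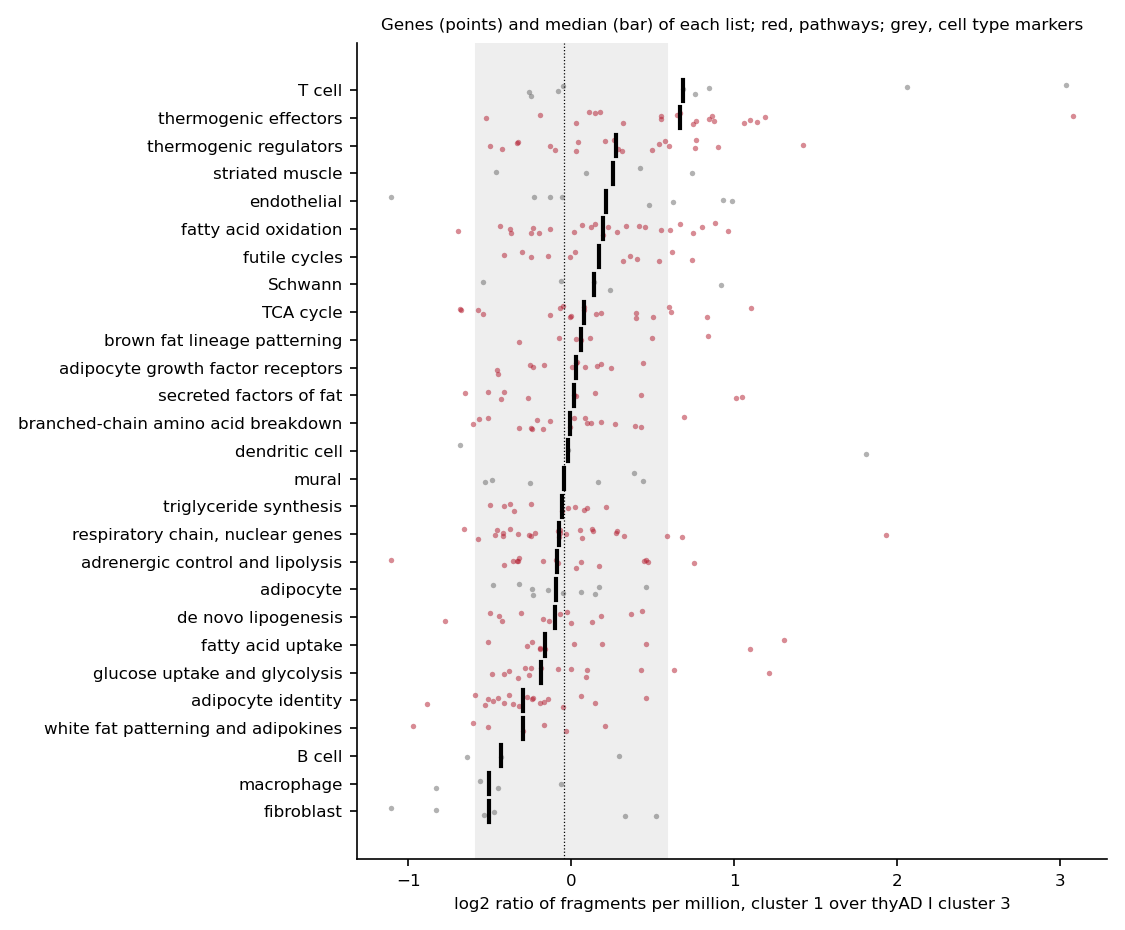
Log2 ratio of cluster 1 over thyAD I cluster 3 for each gene (points) and the median (black bar) of pathway lists (red) and cell type marker lists (grey) with at least 3 genes counted, with the band of less than 1.5-fold shaded and the median of all genes dotted. Among pathways the thermogenic effectors are highest at 0.67, T-cell markers stand beside them at 0.69, and adipocyte identity is at −0.30.

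Cluster 1 was not uniform. A second column of the authors' table clusters the nuclei by RNA alone, and it places 20 of the 85 nuclei in RNA cluster 12, 63 in RNA cluster 4 and 2 in RNA cluster 2. RNA cluster 12 holds 21 labelled nuclei in all, of which 20 are in cluster 1 and 1 is the Immune nucleus with 2 Ucp1 fragments. Every nucleus of cluster 3 and of thyAD II is in RNA cluster 4, and so are 26 of the 31 Immune nuclei, so RNA cluster 4 is not a mark of adipocytes. This comparison was added after the column had been seen. The 20 nuclei of RNA cluster 12 had a median of 11850.5 fragments, gene-start enrichment of 7.39 and 5.92% mitochondrial UMIs, against 12426, 6.61 and 3.97% for the 63.

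Effectors were more accessible in RNA cluster 12 than in the rest of cluster 1. Its 20 nuclei held 541 of the 1535 effector fragments of cluster 1, or 1931 FPM against 1154 in RNA cluster 4. They held 32 of the 45 Ucp1 fragments, in 13 of the 20 nuclei, against 12 fragments in 9 of the 63 nuclei of RNA cluster 4. After thinning, Ucp1 was seen in 9 of 20 and 3 of 63. The log2 ratio between them was 2.92 (1.96 to 4.05), and at the Ucp1 promoter window RNA cluster 12 held 13 fragments and RNA cluster 4 held 2. Of 20 effectors counted, 14 were higher in RNA cluster 12 and 1 was lower, where 15.6% of all 15485 genes were higher and 15.6% lower, and the median was 0.74.

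Among the 14 were Cpt1b at 2.18 (1.09 to 3.38), Slc27a2 at 2.01 (0.75 to 3.36), Otop1 at 1.26 (0.53 to 1.97), Pank1 at 1.09 (0.53 to 1.63) and Cidea at 0.74 (−0.04 to 1.47). Ppara, a regulator, was at 1.32 (0.82 to 1.81), with 65 fragments in RNA cluster 12 and 76 in the larger RNA cluster 4. Dio2 and Prdm16 went the other way, at −0.62 and −0.52, and RNA cluster 4 held 42 of the 51 Dio2 and 310 of the 391 Prdm16 fragments. Identity genes had a median of −0.28, with 0 of 20 higher and 7 lower. Ghr was at −1.30 (−1.80 to −0.86), Retn, the hormone resistin, at −2.11 (−5.52 to −0.44) and Lep at −1.27 (−2.89 to −0.13).

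Per nucleus, the summed level of the 22 effectors in RNA cluster 12 ran from 1000.3 to 3406 FPM, with a median of 2040. The median was 1155 in RNA cluster 4 (382 to 2334), 962 in cluster 3 (369 to 1720), 938 in thyAD II (168 to 1705) and 590.3 in Immune (0 to 1198). The ranges overlap, and the lower quartile of RNA cluster 12, 1605, lies above the upper quartile of RNA cluster 4, 1370. The remainder of cluster 1 stood closer to cluster 3: RNA cluster 4 over cluster 3 gave an effector median of 0.28, with 7 of 18 genes higher and 1 lower, where 10.7% of all genes were higher and 11.6% lower. With the 20 nuclei left out of cluster 1, the effector median over cluster 3 was 0.23, and Cpt1b went from 0.67 to −0.19.

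**Figure D4:**
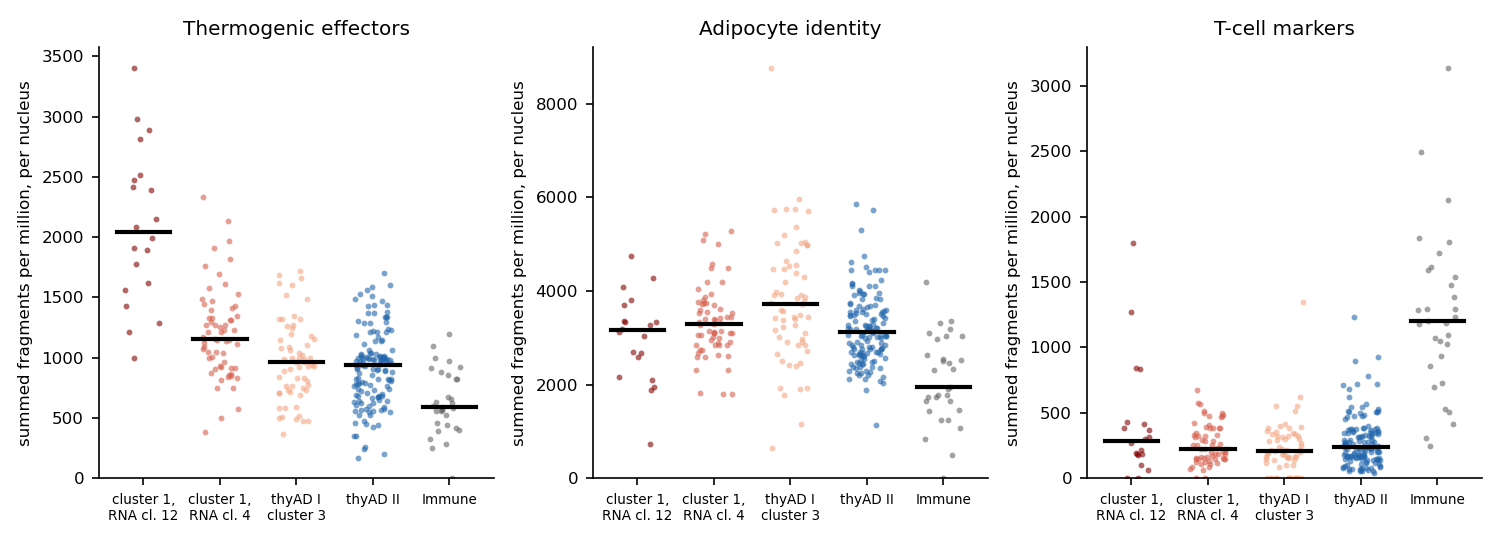
Summed FPM per nucleus (points) and their median (bar) for thermogenic effectors, adipocyte identity genes and T-cell markers, in cluster 1 split by the deposited RNA cluster (20 and 63 nuclei), thyAD I cluster 3, thyAD II and Immune. The effector median is 2040 in RNA cluster 12 and 1155 in RNA cluster 4, and 4 nuclei of RNA cluster 12 reach 800 or more T-cell marker FPM.

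Some T-cell markers were also higher in cluster 1 than in cluster 3. Of 15 T-cell markers, 9 were counted, of which 5 were higher and 0 lower, where 11.6% and 11.2% of all genes were, with a median of 0.69. Cd4, a coreceptor of helper T cells, held 26 fragments in cluster 1 and 1 in cluster 3, and Lck, the kinase of T-cell receptor signalling, 40 and 4. Rag2 and Cd8b1 were at −0.25 and −0.26. T-cell markers summed to 521 FPM in RNA cluster 12, 274 in RNA cluster 4, 229.6 in cluster 3 and 1158 in Immune. The highest levels lay in few nuclei: 4 of the 20 in RNA cluster 12 and 1 of the 2 in RNA cluster 2 had at least 800 T-cell marker FPM, as did 0 of the 63 in RNA cluster 4, 1 of 61 in cluster 3 and 24 of 31 Immune nuclei. The effector sums of those 4 nuclei of RNA cluster 12 were 1558, 1000.3, 1287 and 1213 FPM, all below the lower quartile of their group. In RNA cluster 4 over cluster 3, 7 T-cell markers were counted, of which 2 were higher and 0 lower, where 10.7% and 11.6% of all genes were, with a median of 0.38. Lck was at 1.40 (−0.07 to 3.55). Outside the list, Ikzf1, a lymphoid factor, was at 1.52 (0.39 to 3.02) and Flt3, a dendritic cell marker, at 1.57 (0.27 to 3.42); they were chosen after their values were seen.

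Without nuclei at or above that level, a cut chosen after the data were seen, T-cell markers in RNA cluster 12 summed to 233 FPM, against 218 in cluster 3. The sum fell by construction, since the limit was set on these markers. Ikzf1, outside that list, went from 1.26 to −1.15 in RNA cluster 12 over RNA cluster 4 (−3.70 to 0.32, on 3 and 33 fragments). For cluster 1 over cluster 3, Ikzf1 was still at 1.31 and Flt3 at 1.45, with intervals above 0, and Lck at 1.28 (−0.15 to 3.42). The effector median of RNA cluster 12 over RNA cluster 4 went from 0.74 to 1.05, with 13 of 18 higher and 0 lower, where 17.3% and 16.8% of all genes were, Ucp1 from 2.92 to 3.19 Cidea from 0.74 to 1.25 and Slc27a2 from 2.01 to 1.96. For cluster 1 over cluster 3 the effector median was 0.66 without them, with 12 of 21 higher against 11.5% of all genes, Ucp1 went from 3.08 to 3.01, Pank1 from 0.87 to 0.77 and Slc27a2 from 0.77 to 0.61. The identity median between the RNA clusters went from −0.28 to −0.12, with 1 of 20 higher and 5 lower, Ghr was at −0.90, and Retn and Lep at −1.55 and −0.70 with intervals that reach above 0. Every one of the 317 labelled nuclei, those of Immune included, was classed as a singlet in the authors' table, so this class does not set any nucleus apart.

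The 12 genes with the largest ratios over cluster 3, among genes with at least 40 fragments, included lymphocyte genes beside Ucp1. After Ucp1 came Sla, an adaptor of lymphocytes, with 40 fragments in cluster 1 and 3 in cluster 3, then Spdef with 38 and 3, Cerkl with 74 and 7, the long RNA Mirc35hg with 44 and 4, Car14 with 43 and 4 and Zfp831 with 89 and 9. Next were Ikzf1 with 67 and 7, Lck, Telo2 with 39 and 4, Cib4 with 44 and 5, and Acss1, which makes acetyl-CoA in mitochondria, with 66 and 8. Their log2 ratios ran from 1.86 to 3.08. Sla, Ikzf1 and Lck were lower than in Immune, at −1.74, −1.09 and −1.07, whereas Spdef, Cerkl, Car14 and Acss1 were higher, at 1.81, 1.69, 1.35 and 0.63. The nucleus with the most fragments of Sla, Spdef, Zfp831 and Lck was the same one, with 40987 fragments in all, and it held 9 of the 40 Sla and 8 of the 40 Lck fragments. All 12 remained past 1.5-fold with each gene's fullest nucleus left out on both sides. All 12 ratios rose in this step, because it also takes fragments from the sparse cluster 3 side. Spdef, for example, went from 2.35 to 3.41. The step therefore cannot show whether these ratios rest on single nuclei of cluster 1.

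On the lower side, most of the ranking came from 1 nucleus of cluster 3. The 12 genes were Kctd8, Snrpn, Far2, Sptlc3, Lmx1a, Ap3b2, Snhg14, Thbs1, Metap1d, Tcerg1l, Psmc5 and Scn10a, with log2 ratios from −2.48 to −1.49. For 9 of them the same nucleus, which had 16869 fragments, held at least 50% of the cluster 3 fragments. It held 82 of 96 at the imprinted gene Snrpn, 84 of 111 at Snhg14, whose window overlaps Snrpn, 51 of 67 at Lmx1a and 20 of 25 at Scn10a. Its gene-start enrichment was 4.43 and its nucleosome signal 0.103, the lowest of all 317 nuclei. With each gene's fullest nuclei left out, 5 of the 12 no longer passed 1.5-fold: Snrpn was at −0.07, Snhg14 at −0.06, Lmx1a at −0.12, Tcerg1l at −0.43 and Scn10a at 0.45. Thbs1, Metap1d and Psmc5, spread over more nuclei, stayed between −1.51 and −1.49. For the effectors, 12 of 12 stayed past 1.5-fold in this step. The step also removes fragments from the sparse cluster 3 side, and Ucp1 went from 3.08 to 3.57. It therefore cannot show whether effector ratios rest on single nuclei of cluster 1.

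Against thyAD II, the genes with the largest ratios were Ucp1, Cerkl at 2.20, the retinol dehydrogenase Dhrs9 at 2.20 (29 and 12 fragments), Neu2 at 1.94, Lncbate10, a brown fat long RNA, at 1.90 (35 and 18) and Mab21l2 at 1.86. The lowest were Ecrg4 at −2.50 (3 and 38), the growth factor Fgf7 at −1.93 (7 and 55), Ptgr1, Lrrc3, B4galt6 and Fam151a, from −1.88 to −1.81. Of all 22673 genes, 7.62% were higher and 10.7% lower. Against Immune, Knop1 at 3.28, Hpdl, Rnf152, Frmpd3, Ucp1 and Insyn2a led, and Lmo3 at −3.08, D6Ertd474e, Pla2g4a and the T-cell gene Cd8b1 were among the lowest, with 15.6% of all 18520 genes lower. Single Immune nuclei held 53 of the 90 Lmo3, 27 of the 33 D6Ertd474e and 54 of the 63 Pla2g4a fragments of that class. With each gene's fullest nuclei left out, an alternative added after the data were seen, the 3 ratios were −2.30, −0.85 and −0.39, and Cd8b1 was at −3.28. Effectors were higher than in Immune in 15 of 22 cases, where 18.2% of all genes were higher, with a median of 1.21, and T-cell markers had a median of −1.60, with 12 of 13 lower.

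Over the whole gene set cluster 1 resembled thyAD II as much as its own class. Across 13860 genes, Spearman's correlation of accessibility per kilobase was 0.966 with thyAD II cluster 0, 0.963 with thyAD II cluster 4, 0.959 with thyAD I cluster 3 and 0.920 with Immune. These are descriptions across genes of 1 library, they share depth and base composition, and cluster 3 is the shallowest of these groups.

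RNA of the same genes in the 4-month male library gave a readout that the chromatin clusters did not use. That library's authors' labels split type I nuclei into Ad Ia (35 nuclei, 27659 UMIs) and Ad Ib (49 nuclei, 24582 UMIs). In Ad Ib over Ad Ia, the 5 of 22 effectors with at least 10 UMIs over both labels had a median log2 ratio of 1.55 (5 of 5 above 0). Regulators had 0.85 (4 of 7 above 0) and identity genes −1.23 (3 of 15 above 0), against 0.03 for 1022 genes. A sparse gene can reach 10 UMIs through the label where it is high, so the filter favours large ratios. All 22 effectors together had 47 UMIs in Ad Ia and 89 in Ad Ib. The library differs from the chromatin library in age and sex, the labels were drawn from this RNA, and no label ties Ad Ia or Ad Ib to cluster 1 or 3.

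Pank1 had 7 UMIs in Ad Ia and 19 in Ad Ib, a log2 ratio of 1.55 (0.30 to 3.10). Cidea had 4 and 12, a ratio of 1.64 (0.03 to 3.84), and Ppara 33 and 56, a ratio of 0.92 (0.29 to 1.60). Cpt1b was at 1.76 (−0.05 to 4.41) and Ppargc1b at 0.85 (0.04 to 1.72). For Cidea, barcodes without a label held 201 UMIs in every 1000000, between the 145 of Ad Ia and the 488 of Ad Ib. Ucp1 itself had 1 and 4 UMIs (interval −1.17 to 7.79), or 36.2 and 163 for every 1000000 UMIs, beside 90.4 in barcodes without a label. Its RNA level was thus not resolved from that of the unlabelled barcodes at this depth. Whether those barcodes hold free RNA or other nuclei was not tested.

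On the other side, Car3 had 123 and 23 UMIs, a log2 ratio of −2.22 (−2.96 to −1.60), Cfd 58 and 9, Cidec 28 and 4, and Ghr 413 and 105, a ratio of −1.80 (−2.13 to −1.49). Barcodes without a label held 1049 Car3 and 702 Cfd UMIs in every 1000000, above the 936 and 366 of Ad Ib. The Ad Ib side of these 2 ratios thus lies below the level of unlabelled barcodes. In chromatin of cluster 1 over cluster 3 these 4 genes lay between −0.88 and −0.45. Cd36, which endothelial cells also express, had 35 and 64. Endothelial markers moved with Ad Ib, with 2 UMIs in Ad Ia and 64 in Ad Ib, of which Flt1 had 0 and 24. T-cell markers had 14 and 26 UMIs, mural markers 6 and 17 and macrophage markers 2 and 9. Their part in these ratios was not tested. Across genes with enough counts in both readouts, Spearman's correlation of the RNA ratio with the chromatin ratio was 0.10 for cluster 1 over cluster 3 (1000 genes) and 0.25 for RNA cluster 12 over RNA cluster 4 (997 genes). Genes are not independent replicates, and over all genes the 2 readouts were only weakly related.

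**Figure D5:**
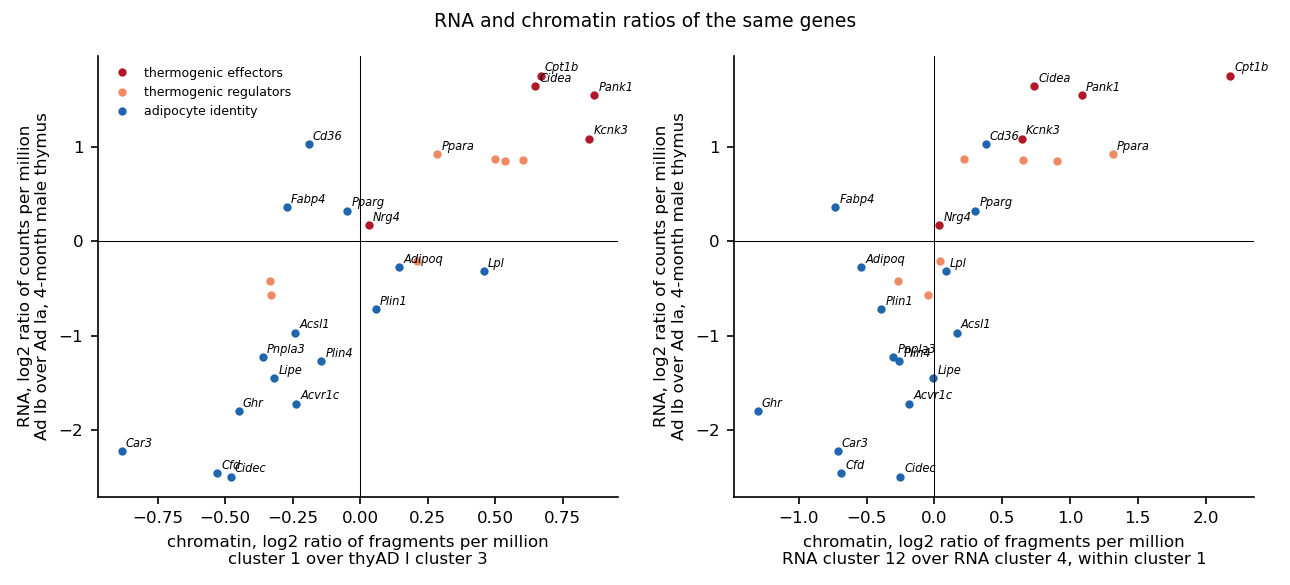
RNA log2 ratio of Ad Ib over Ad Ia in 4-month male thymus (vertical) against the chromatin log2 ratio of 6-month female nuclei (horizontal), for cluster 1 over thyAD I cluster 3 (left) and for RNA cluster 12 over RNA cluster 4 within cluster 1 (right), for list genes with at least 10 UMIs and 20 fragments. On the left, the effector Pank1 (0.87 in chromatin, 1.55 in RNA) lies at the upper right, Car3 (−0.88 and −2.22) at the lower left and Cd36 at the upper left. Over all genes with enough counts, Spearman's correlation was 0.10 for the left ratio and 0.25 for the right. No label ties Ad Ib to cluster 1.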

How the data were processed

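Chromatin accessibility fragments were measured in 1 library of 6-month female thymi. The authors made them with cellranger-arc 2.0.2 on GRCm38 (mm10), per the file headers. Their table gives, per nucleus, deposited counts of UMIs and fragments, the percent of mitochondrial UMIs, an enrichment score, a nucleosome ratio, a doublet class and clusters. The submitters' processing notes name Seurat 5.1.0. The copy of that table used here stops inside row 318, so its 317 complete rows were used. Deposited RNA counts of the 4-month thymus came from cellranger 7.2.0, per the file headers. Of the 317 barcodes, 0 are among the labelled 4-month barcodes and 6 among all 22600 of them.

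Fragments overlapping each of 49939 RefSeq genes (GRCm38.p6) with 2 kb on either side were summed per nucleus with Python 3.11.15, numpy 2.4.6, pandas 2.3.3 and scipy 1.17.1, and counts were scaled to 1000000 per class (FPM). Ratios, calls and intervals were tested on counts drawn with known ratios, which lack the crowding of fragments in single nuclei seen here. The window counts were checked against a direct count in a sample of windows. Named genes were all genes of the 2 thermogenic lists and the identity list, the 2 highest and 2 lowest of other pathway lists with at least 20 fragments, the 12 largest ratios each way over cluster 3 with at least 40 fragments, the 6 largest over thyAD II and Immune, and the leading bins. A few genes that this rule selects are not reported here. Members, lists and rules were chosen with earlier results of these data known. Fragments are not counted by molecular identifiers, and no doublet caller was run, since every nucleus carries the class singlet. There were 13 alternatives set out first and 3 added after seeing the data.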

Additional observations from a re-analysis of the deposited data

How the results depend on the processing

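No paired analysis was possible because each group is 1 library. Counts of genes past 1.5-fold over cluster 3 (2098 higher, 2039 lower) depended on the minimum: 3451 higher with 10 fragments, 739 and 996 with 50, and 7711 and 9258 with 1. They were 590 higher and 2777 lower with 5 fragments added, 3608 and 2896 with cut sites, and 1019 and 1986 in windows at gene ends. Over thyAD II (1728 and 2424) they were 2767 higher with 10 fragments, 790 and 1191 with 50, 9111 and 10951 with 1, 2067 and 907 with 5 fragments added, 2711 and 3713 with cut sites, and 1095 and 1659 at gene ends. Over Immune (3372 and 2881) they were 1751 and 1347 with 50, 8138 and 11899 with 1, 1599 and 3439 with 5 fragments added, and 1807 and 1770 at gene ends.

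The effector median of 0.67 was 0.30 with 5 fragments added, which weighs on the shallower side, 0.90 over gene bodies alone, 0.82 with equal weight per nucleus, 0.28 in nuclei with at least 10000 fragments and 0.23 without RNA cluster 12. The regulator median of 0.27 was −0.11 at gene ends and 0.45 in nuclei with at least 10000 fragments, and the identity median of −0.30 was −0.17 there. These 3 medians kept their sign under all other alternatives, and the causes were not tested. Scaling to fragments in gene windows or by the median of ratios put the effector median at 0.68 and 0.69. The setting of 3000 fragments per nucleus removed 0 nuclei. Of 2570 single-gene values for 174 genes, 2516 stayed within the counting interval and 47 moved beyond it. The minimums of 10, 50 and 1 fragment and the setting of 3000 fragments leave each ratio unchanged, so those values could only stay within it. Sign changes were counted only for the 82 genes past 1.5-fold, where there were 7: Prdm16 at −0.50 at gene ends; Lmx1a at 0.090 and Scn10a at 0.66 without the nucleus of most total fragments on each side; Cox10 at −0.14, Hoxa9 at 0.81 and Bmp7 at −0.049 in nuclei with at least 10000 fragments; and Cpt1b at −0.19 without RNA cluster 12. Genes nearer to 0 crossed it too, as Ppara did at −0.16 without RNA cluster 12. Depth limits single genes: intervals of genes with few fragments are wide, as for Ucp1.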

Other observations

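The deepest nucleus of cluster 1, with 44467 fragments, had a gene-start enrichment of 4.94 and 18836 counts in the authors' peaks, whereas the next deepest, with 40987 fragments, had 7.43 and 43879. The first held 17 of the 73 Snhg14 and 14 of the 43 Snrpn fragments of cluster 1. It is in RNA cluster 4 and the other in RNA cluster 12.

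The 2 cluster 1 nuclei of RNA cluster 2 had 448 and 414 UMIs, against a median of 2724, and held 28896 fragments together, of which 1 lay in the Ucp1 window and 0 in the Adipoq window.

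At the resistin gene Retn, the promoter window held 25 fragments in RNA cluster 4 of cluster 1 and 0 in RNA cluster 12.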
